A study of Drosophila melanogaster with 2 samples.

Results

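Cytoplasmic ribosomal protein genes encode the proteins of the ribosome that works in the cytosol. They were taken here as every protein-coding gene of the BDGP6 annotation (Ensembl release 115, BDGP6.54, in dm6 coordinates) whose symbol is RpL, RpS or RpLP followed by a number. The rule found 92 of 13945 protein-coding genes on the chromosome arms, 38 of the small subunit (RpS) and 54 of the large subunit (RpL and RpLP). The symbol rule also takes 5 genes named as "-like". Of these, RpL7-like, RpL24-like and RpLP0-like have counterparts in other eukaryotes that act in ribosome assembly.

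The series measured, by chromatin immunoprecipitation sequencing, where the nuclear receptor Ftz-F1 sits in whole Drosophila melanogaster embryos of pooled sexes, aged 0 to 24 h. All samples belong to 1 group: flies of the ftz-f1-GFP strain, stably carrying Ftz-F1 joined at its C-terminus to eGFP, with the tag pulled down by an anti-GFP antibody. The 2 libraries are labelled biological replicates 1 and 4, each with its own biosample. Separate cultures are not stated for them, so the spread between them may be partly technical. The tagged protein was read in the whole organism, so weak occupancy in many cells and strong occupancy in few cells cannot be told apart.

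A ribosome has a small subunit, which decodes the messenger RNA, and a large subunit, which joins amino acids and passes the new chain through an exit tunnel. Cells need the ribosomal proteins in matched amounts, and in the fly many of their genes start transcription inside a pyrimidine tract called the TCT initiator rather than at the usual initiator. Their promoters often carry the elements read by the zinc finger proteins M1BP and DREF. Ftz-F1 is known for its work with Fushi tarazu in laying out the embryo's segments and for making tissues able to respond to the hormone ecdysone. It binds DNA as a monomer, with CAAGGTCA as the usual letters of its site.

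A summit of the IDR list lay within 500 bp of a transcript start at 46 of the 92 ribosomal protein genes (50%). The same held for 18.4% of all protein-coding genes, 2572 of 13945, so the share was 2.71 times as large at the ribosomal protein genes. The IDR list is the authors' list of 3960 peaks that passed an irreproducible discovery rate filter, which compares the ranks of peaks between replicates. The strongest summits of the 46 genes were 46 distinct ones, and 3 of the genes had another IDR summit within 500 bp, 49 in all. The position of a peak's highest point is called its summit, and the signal value and rank given below are those of the authors' pooled list of 30000 entries, in which the IDR peaks hold ranks 1 to 3960. Being in the IDR list thus follows the pooled rank and does not show that a given peak ranked alike in both replicates. For example, RpS2 is in it with ranks 1747 and 8236 in replicates 1 and 4, whereas RpL3 with ranks 2068 and 3285 is not. The scale of the signal value is not stated, and the read depth behind it is unknown, so values are set side by side only within 1 list.

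Both replicates gave a similar excess on their own. Among the 3960 strongest peaks of replicate 1, 43 ribosomal protein genes had a summit at a start (46.7%), against 19% of protein-coding genes. In replicate 4 there were 40 (43.5%), against 17.7% of protein-coding genes. In the stronger 1980 peaks of the IDR list, 29 members were found (31.5%), against 10% of protein-coding genes. With any entry of the pooled list, which also holds background regions, 83 members had a summit (90.2%), against 57.8% of protein-coding genes. No test of these shares was run, since the genes were chosen with earlier results known and are not replicates of a condition.

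**Figure D1:**
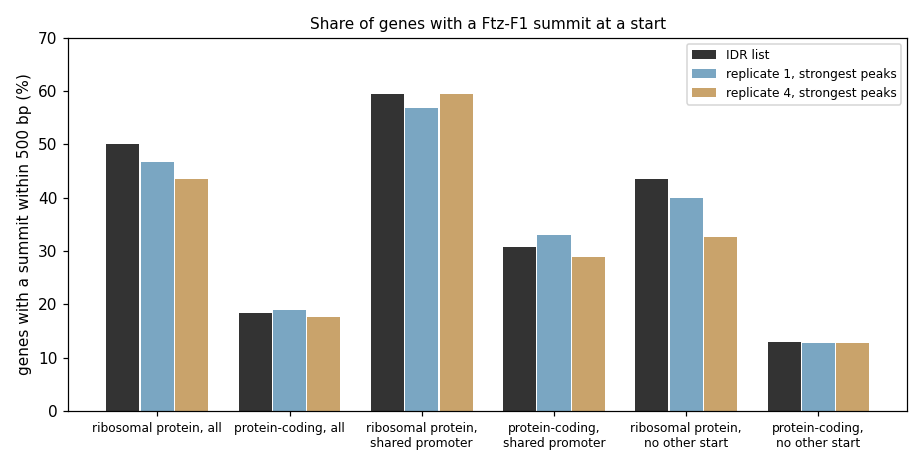
Bars show the share (percent) of ribosomal protein genes and of all protein-coding genes with a summit within 500 bp of a start, in the IDR list and in the 3960 strongest peaks of replicates 1 and 4, for all genes and split by whether another protein-coding gene starts within 500 bp. In each split the 3 ribosomal protein bars stand above the 3 bars of all protein-coding genes beside them, for example 59.5% against 30.7% at shared promoters in the IDR list.

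The strongest summits were those of RpS28a, RpL7, RpL34b, RpL19, RpL30, RpL23A, RpL41, RpS27 and RpL14. Their signal values lay between 267 and 500.2, against a median of 131 over the IDR list. All of them ranked 1004 or better in replicate 1 and 740 or better in replicate 4. The bases around the starts of 7 of them are printed first, to show the letters at which these genes start. Each run covers 30 bases, 15 before the start and 15 from it on, in the direction of transcription, and capitals mark the letters TCTTT of a TCT initiator where its C lies within 10 bases of the start. Where TCTTT occurs more than once that near, only the match nearest the start is in capitals.
RpS28a: gcagcactcacagcttcaaattcaaatctt
RpL7: gtatagcacgtttccggTCTTTctttccct
RpL34b: tttctagtttcgtcTCTTTgaggtatgcac
RpL30: atttccgcctgttcttccTCTTTcttttgc
RpL23A: aactgcccctcagttttccttttcatttct
RpS27: tgttcagcattatttagtgcattctcgggc
RpL14: ctgtcaaaaaagtTCTTTccttctctttct
The 4 runs with capitals are from RpL7, RpL34b, RpL30 and RpL14, and the other 3 hold no TCTTT at that place. Where a gene has several annotated starts, the start shown is the one with the TCTTT, and otherwise the one nearest the summit. Offsets are always counted from the start nearest the summit, which for RpL7 and RpL34b is another start (chr2L position 10201004 and chr3R position 9401226) than the one shown.

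RpS28a (FBgn0039739, chr3R:30022345-30022648, minus strand), whose protein sits near the mRNA exit of the small subunit, had the strongest summit of all 92 genes. Its signal value was 500.2, at rank 90 of the pooled list, rank 114 in replicate 1 and rank 87 in replicate 4. The summit, at chr3R position 30022776, lay 128 bp upstream of the start, and 129 and 112 bp upstream in replicates 1 and 4. It was nearer a start of the divergent neighbour Axn, at 66 bp, and at 65 and 82 bp in replicates 1 and 4. From these lists alone it cannot be assigned to either gene. RpL34b (FBgn0037686, chr3R:9400237-9401226, minus strand), a large subunit gene, had a signal value of 391 at rank 172, with ranks 180 and 175 in replicates 1 and 4. Its summit, at position 9401302, lay 76 bp upstream, and the IDR list held another summit for it at an offset of −283 bp, with a signal value of 158 at rank 1338. Both genes kept nearly the same rank in the 2 replicates.

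These 2 summits are shown because each holds, within a few bases of its highest point, the Ftz-F1 letters with 1 base different. Each run covers 101 bases centred on the summit, on the strand of the ribosomal protein gene, at chr3R:30022726-30022826 and chr3R:9401252-9401352, and capitals mark the near match, which starts 4 bases after the summit base at RpS28a (read on the other strand) and 2 bases after it at RpL34b.
RpS28a: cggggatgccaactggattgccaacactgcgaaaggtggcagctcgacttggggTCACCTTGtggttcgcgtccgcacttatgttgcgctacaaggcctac
RpL34b: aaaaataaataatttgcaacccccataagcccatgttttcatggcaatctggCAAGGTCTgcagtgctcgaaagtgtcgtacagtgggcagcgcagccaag
Such a near match within 100 bp of the summit was found at 3 of the 46 genes (6.52%), the other being RpS26. Among all 2312 IDR summits within 500 bp of a protein-coding start the share was 20.1%. This looser search was chosen after the data were seen, and a match is a run of letters, not a measured site.

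RpL7 (FBgn0005593, chr2L:10201004-10202321, plus strand), a large subunit protein close to the 5S RNA, came next with a signal value of 446 at rank 114. It ranked 323 in replicate 1 and 71 in replicate 4, and its summit lay 28 bp downstream of a start, in the 5′ UTR, against 29 and 30 bp in the replicates. RpL30 (FBgn0086710, chr2L:19008031-19009306, minus strand) had a signal value of 293 at rank 329, with ranks 539 and 246 in replicates 1 and 4, also 28 bp downstream. Its yeast counterpart is known for also controlling the splicing of its own transcript. RpL23A (FBgn0026372, chr3L:1666288-1668654, minus strand), at the mouth of the exit tunnel, had 287 at rank 347, with ranks 576 and 295 and a summit 99 bp upstream. RpS27 (FBgn0039300, chr3R:25245955-25247514, minus strand), a zinc-binding protein, had 271 at rank 402, with ranks 247 and 530 and a summit 29 bp upstream. RpL14 (FBgn0017579, chr3L:8601006-8602392, plus strand) had 267 at rank 415, with ranks 296 and 740 and a summit 21 bp upstream. The first 3 of these 5 genes stood nearer the top in replicate 4, and RpS27 and RpL14 in replicate 1, so neither replicate was stronger throughout.

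RpL19 and RpL41 lie on arm 2R, and their sequences are not shown. RpL19 (FBgn0285950, chr2R:24967877-24969547, minus strand), a protein of the exit tunnel region, had a signal value of 346 at rank 224, with ranks 327 and 189 in replicates 1 and 4 and a summit 19 bp upstream. RpL41 (FBgn0066084, chr2R:24903416-24903935, minus strand), which encodes a very short protein, had 285 at rank 356 and the widest spread between replicates of all 46 genes, rank 1004 against rank 187, a ratio of 5.37.

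**Figure D2:**
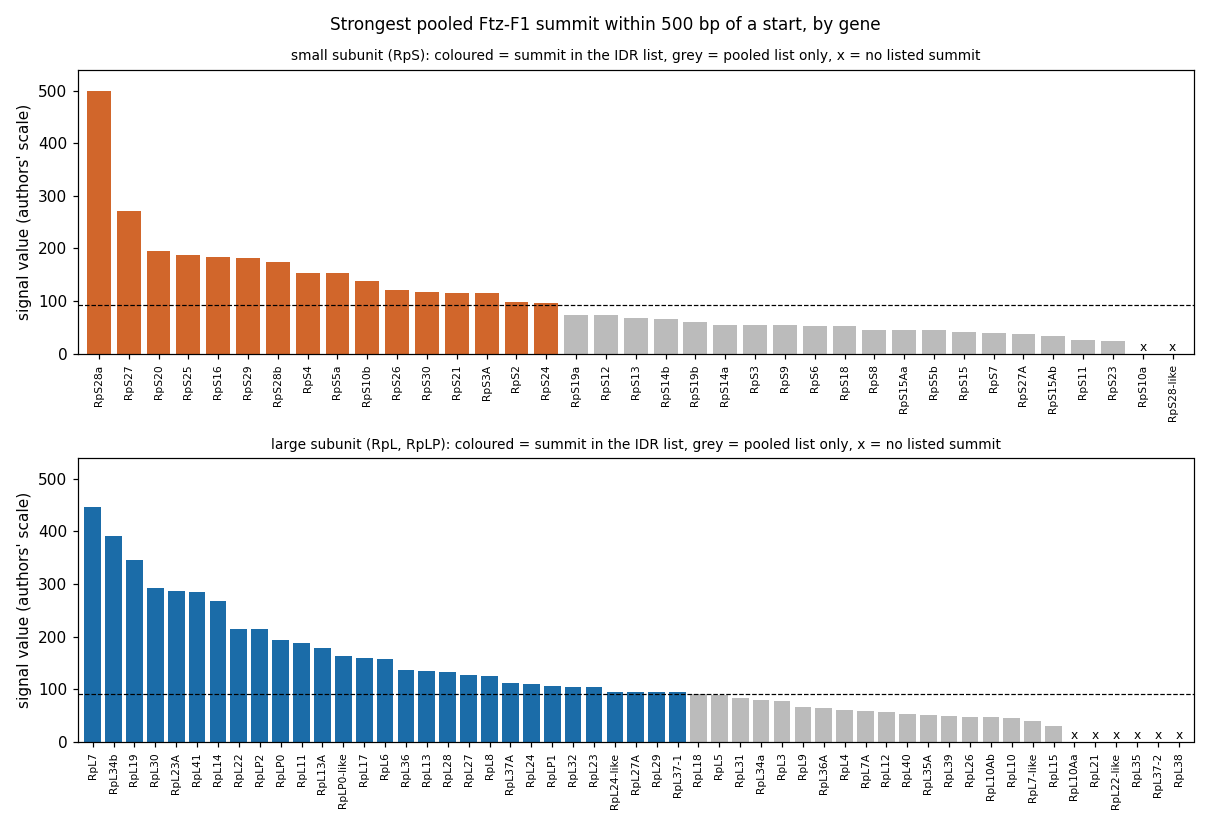
Bars show, for 90 of the 92 genes, the authors' signal value of the strongest pooled summit within 500 bp of a start, with small subunit genes above and large subunit genes below. Coloured bars are summits in the IDR list, grey bars are in the pooled list only, crosses mark genes with no listed summit, and the dashed line is the lowest signal value of the IDR list, 91.8. In the large subunit panel the values on either side of the line are 94 and 91.5, and in the small subunit panel 96.2 and 74.

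The signal value of the 46 genes ran from 94 to 500.2 with a median of 155 (quartiles 115 and 209.8), against a median of 137 (110 and 192) over all protein-coding genes with an IDR summit. By rank, 9 members (9.78%) were among the first 500 pooled peaks, against 2.39% of protein-coding genes. Ranks 501 to 1980 held 20 members (21.7%, against 7.62%), and ranks 1981 to 3960 held 17 (18.5%, against 8.44%). The excess was thus spread over the whole IDR list. Beyond the IDR limit, ranks 3961 to 7920 held 14 (15.2%, against 13.8%) and ranks 7921 to 15000 held 19 (20.7%, against 14.1%). The lowest ranks, 15001 to 30000, held 4 (4.35%, against 11.4%). The other 9 had no entry within 500 bp, among them RpL10Aa, RpL21, RpL22-like, RpL35, RpL37-2, RpL38, RpS10a and RpS28-like. Members exceeded the background share in each class down to rank 3960, were near it at ranks 3961 to 7920 and above it at ranks 7921 to 15000. They were below it in the lowest class and among genes with no summit.

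All 46 genes were listed in both replicates. In replicate 1 their ranks ran from 114 to 5818 (median 1468), and in replicate 4 from 71 to 8236 (median 1205). Of the 46, 34 were among the 3960 strongest peaks of both replicates, 6 of replicate 1 only and 5 of replicate 4 only, and RpL37-1 was among those of neither. The ranks in the 2 replicates were within 2-fold for 26, and the median ratio was 1.76. The summits of the 2 replicates lay a median of 34.5 bp apart (quartiles 14.8 and 109, highest 296), within 50 bp for 30 genes and over 100 bp apart for 13. Among the 46 genes without an IDR summit, 36 were listed in both replicates, a median of 91 bp apart. Of these, RpL3, RpL34a and RpL5 were among the strongest 3960 of at least 1 replicate. RpL3, which reaches toward the site of peptide bond formation, was there in both, at rank 2068 in replicate 1 and 3285 in replicate 4, with a pooled rank of 5274.

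**Figure D3:**
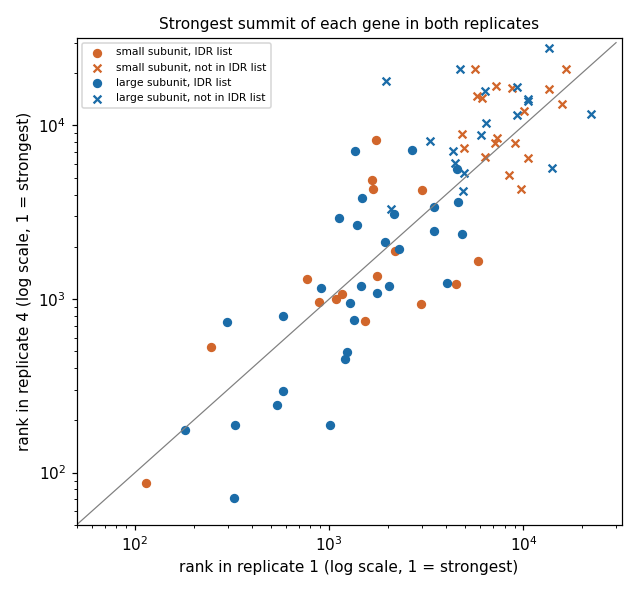
Each point is 1 ribosomal protein gene at its rank in replicate 1 (x axis) and replicate 4 (y axis), both on log scales with rank 1 the strongest, and the line marks equal ranks. Circles are the 46 genes of the IDR list and crosses are other genes listed in both replicates, and the strongest genes lie toward the lower left, with RpS28a at ranks 114 and 87.

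Of the small subunit, 16 of 38 genes had an IDR summit (42.1%), and of the large subunit 30 of 54 (55.6%). In replicate 1 the shares were 36.8% and 53.7%, and in replicate 4 they were 31.6% and 51.9%, so the large subunit share was higher in these 3 lists. With any entry of the pooled list it was 92.1% of the small subunit genes and 88.9% of the large. The summits that were present had much the same signal value, a median of 154 (96.2 to 500.2) in the small subunit and 158.7 (94 to 446) in the large. Split by promoter, 10 of 23 small subunit genes with no other protein-coding start within 500 bp had an IDR summit (43.5%), as did 14 of 32 such large subunit genes (43.8%). Among genes with another start nearby the counts were 6 of 15 (40%) and 16 of 22 (72.7%). Whether the subunits differ was not tested.

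The functional groups below were written after the values were seen. They hold 2 to 8 genes each, and stand beside shares of 50% over all members and 18.4% over all protein-coding genes. Whether any group differs from these shares was not tested. All 3 proteins of the stalk, which recruits translation factors to the large subunit, had an IDR summit. RpLP0 had a signal value of 194 at rank 887 (ranks 1343 and 752 in replicates 1 and 4), 43 bp upstream of a start. RpLP1 had 106 at rank 3028 (1939 and 2141), 39 bp downstream, with another IDR summit 270 bp downstream, and RpLP2 had 215 at rank 720 (1206 and 454), 111 bp downstream, with another 312 bp downstream. RpL12, at the stalk base, had no IDR summit, with a signal value of 55.8 at rank 8587. Of the 46 genes, RpLP1 and RpLP2 were the ones with another IDR summit downstream of the start, and in replicate 4 the strongest RpLP1 summit was itself 266 bp downstream.

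Of the 2 proteins that bind the 5S RNA, RpL11 had an IDR summit at rank 958 with a signal value of 187, and RpL5 lay just outside at rank 4198 with 88.6. Around the exit tunnel, RpL17, RpL19 and RpL23A had one, and RpL4, RpL26, RpL31, RpL35 and RpL39 did not. That is 3 of 8, against 50% of all members and 18.4% of all protein-coding genes. At the mRNA entry of the small subunit, RpS2 (98.7, rank 3463) and RpS30 (118, rank 2517) had one, and RpS3 did not (54.6, rank 8848). Of the head proteins near the tRNA sites RpS16 had one (183, rank 1000), and RpS15 and RpS18 did not. The genes made as fusions with ubiquitin, RpL40 and RpS27A, had none, at ranks 9370 and 14289. Each of these groups with an IDR summit also held at least 1 gene without.

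Paralogs within the set, grouped by gene symbol, allow related genes to be compared, though the identity of their proteins was not measured. They include RpL7-like, RpL24-like and RpLP0-like, whose counterparts in other eukaryotes act in ribosome assembly. There were 13 families with 27 genes, of which 12 genes had an IDR summit (44.4%), against 34 of the 65 members without a paralog in the set (52.3%). In 6 families exactly 1 gene had an IDR summit. RpL7 had it and RpL7-like did not, with signal values of 446 and 39.1 and ranks 114 and 13452. RpL34b (391, rank 172) stood against RpL34a (80, rank 4992), although RpL34a ranked 1960 in replicate 1 and 17993 in replicate 4, so the 2 replicates disagree on it. The pooled RpL34a summit also lay nearer a divergent neighbour, 104 bp from Trmt61 and 125 bp from RpL34a. RpL22 (215, rank 716) had an IDR summit, and RpL22-like, known for expression in the male germline, had no entry in any list.

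RpS5a (154, rank 1420), the widely used copy, had an IDR summit, and RpS5b, the copy known from the ovary, did not (44.3, rank 11592). RpS10b (138, rank 1779) had one, and RpS10a was listed only in replicate 4, at rank 14776. RpL37-1 (94, rank 3807) was the last gene inside the IDR limit, and RpL37-2 had no entry. In 3 families more than 1 gene had an IDR summit. RpLP0 (194) and RpLP0-like (164, rank 1239) were close in signal value, as were RpL24 (109.5, rank 2877) and RpL24-like (94.9, rank 3731). RpS28a (500.2) exceeded RpS28b (174, rank 1095), and RpS28-like had no entry. The 2 replicates placed RpS28a above RpS28b, at ranks 114 and 1534 in replicate 1 and 87 and 746 in replicate 4. In each of these 3 families a counted pooled summit lay nearer the start of a divergent neighbour. These were RpLP0-like (31 bp from 14-3-3zeta, 56 bp from the member), RpL24-like (5 and 151 bp, CG5276) and RpS28a (66 and 128 bp, Axn). Such a summit cannot be assigned to the paralog from these lists alone.

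In the other 4 families neither gene had an IDR summit. RpL10Aa had no entry, and RpL10Ab had a signal value of 46.3. The values were 55.1 and 66.5 for RpS14a and RpS14b, and 45.2 and 34 for RpS15Aa and RpS15Ab. They were 74 for RpS19a and 59.8 for RpS19b, a copy known from the germline. RpS14a and RpS14b share an identical run of 122 bp within 500 bp of their starts, so reads there could belong to either gene, and their values are uncertain. In every other family the longest shared run was between 10 and 26 bp.

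**Figure D4:**
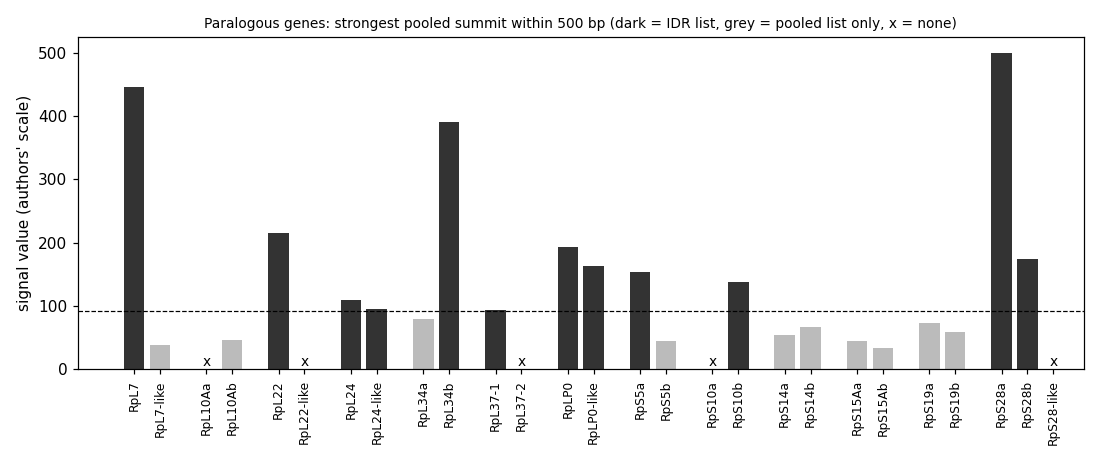
Bars show the authors' signal value of the strongest pooled summit within 500 bp of a start for the 27 genes of the 13 paralog families, grouped by family. Dark bars are in the IDR list, grey bars in the pooled list only, crosses mark no listed summit, and the dashed line is the lowest IDR value, 91.8. RpL7 and RpL34b tower over their paralogs at 446 and 391, whereas RpLP0 and RpLP0-like, at 194 and 164, are nearly level. Among the dark bars, the summits of RpLP0-like, RpL24-like and RpS28a lay nearer the start of a neighbouring gene. Among the grey bars, those of RpL34a, RpS14a and RpS15Ab did.

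Another protein-coding gene started within 500 bp of 37 of the 92 members, and 22 of these had an IDR summit (59.5%), against 30.7% of all protein-coding genes with such a neighbour. Of the 55 members with no other start that near, 24 had one (43.6%), against 13% of such protein-coding genes. The ribosomal protein genes thus exceeded the background at both kinds of promoter. Signal values had a median of 186 at the 22 shared promoters and 133 at the 24 others. The nearest neighbour was divergent at all 22, being transcribed away from the ribosomal protein gene.

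At 16 of the 22 the summit lay nearer the start of the ribosomal protein gene, and at 6 nearer the neighbour's. Among those 6 were RpS28a with Axn, RpS20 with CG17271, RpLP0-like with 14-3-3zeta, RpL13 with Dref and RpL24-like with CG5276. Axn is the scaffold of the complex that degrades beta-catenin in Wnt signalling. The RpS28a summit lay 66 bp from its start, against 128 bp from that of RpS28a. Dref encodes the factor that reads the DREF element found in many ribosomal protein promoters. Its start lies 84 bp from that of RpL13, and their common summit, with a signal value of 135 at rank 1855 and ranks 1384 and 2669 in the replicates, was 46 bp from Dref and 130 bp from RpL13. In replicate 1 it was likewise nearer Dref, at 50 bp against 134 bp from RpL13, but in replicate 4 it was 72 bp from Dref and 12 bp from RpL13. At RpL24-like the pooled summit was 5 bp from CG5276 and 151 bp from the ribosomal protein gene. In replicate 4 it was 6 bp from CG5276, whereas in replicate 1 it was 10 bp from RpL24-like and 146 bp from CG5276. Of the 6 summits nearer the neighbour, 2 were so in both replicates, at RpS28a and RpLP0-like, and 4 turned in 1 replicate. Of the 16 nearer the ribosomal protein gene, 14 were so in both, and RpL29 and RpL32 turned in 1.

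The 16 others included RpL7 with Ripalpha, 30 bp away, and RpL34b with CG8132, 269 bp away. RpS27 faced Nup37, a nuclear pore protein gene, at 144 bp, and RpL14 faced Nelf-E, a subunit of the complex that holds paused RNA polymerase, at 127 bp. RpL28 faced eIF1, a translation initiation factor gene, at 381 bp. RpL36 faced Mybbp1A at 290 bp and RpL29 faced Sgf29, of the SAGA acetyltransferase complex, at 122 bp. The rest were RpL13A with Dph4, RpL19 with CG3776, RpL41 with NaCP60E, RpL32 with CG7943, RpLP0 with CG7130, RpLP1 with CG13690, RpS16 with CG4294, RpS21 with CG3104 and RpS25 with CG4820. In a shared promoter a summit cannot be assigned to either gene from these lists alone. Counting a summit only for the gene whose start is nearest left 40 of the 92 members (14 small subunit and 26 large subunit), against 14.7% of protein-coding genes.

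Summits lay close to the starts. The median offset of the 46 was −30 bp, where negative is upstream (quartiles −67.2 and 14), and the median distance in either direction was 39.5 bp. Over all protein-coding genes with an IDR summit the median offset was −51 bp (−151 and 16) and the median distance 88 bp. Within 50 bp of a start lay 60.9% of the member summits, against 32.4% over all protein-coding genes, and within 100 bp 80.4%, against 54.2%. Among the 43 members in the strongest peaks of replicate 1 the median was −33 bp, and among the 40 of replicate 4 it was −18.5 bp. The SD between these 2 medians was 10.3 bp, which also holds the change in which genes were counted. The annotation placed 23 summits upstream of the gene, 20 in a 5′ UTR, 2 in a coding exon and 1 in an intron.

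The offset differed with the kind of promoter. At the 22 shared promoters the median was −46.5 bp with 17 summits upstream, and at the 24 others 4.5 bp with 10 upstream. Over all protein-coding genes the medians were −71.5 and −29 bp. By subunit the medians were 5 bp for the small and −37.5 bp for the large, but in replicate 1 they were −32.5 and −44 bp and in replicate 4 −8.5 and −19.5 bp. The small subunit median therefore moved between lists by more than the subunits differed within either replicate. The IDR list and replicates 1 and 4 gave 16, 14 and 12 small subunit genes and 30, 29 and 28 large. The medians thus cover partly different genes. The downstream end of the range was RpS26, whose strongest summit lay 228 bp downstream of its nearest start, in a coding exon, and 157 and 267 bp downstream in replicates 1 and 4.

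**Figure D5:**
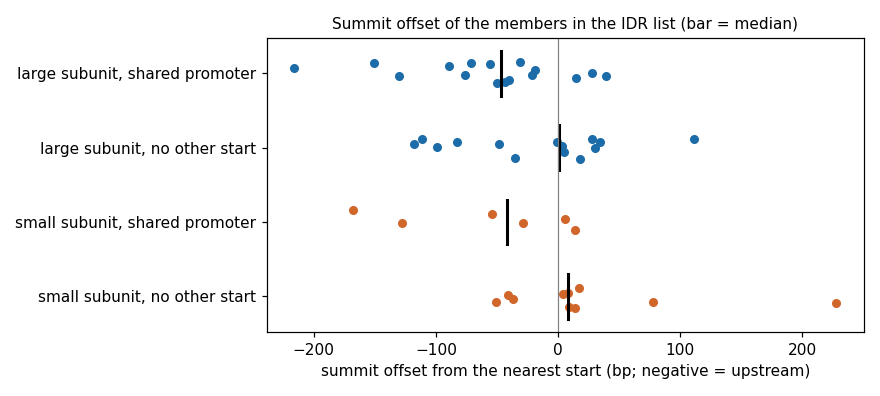
Each point is the IDR summit of 1 ribosomal protein gene at its signed distance in bp from the nearest start (x axis; negative is upstream), by subunit and by whether another protein-coding gene starts within 500 bp. Vertical bars are medians. The points of shared promoters have medians of −46.5 bp (large) and −41.5 bp (small), against 1 bp (large) and 8.5 bp (small) with no other start.

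Letters of 5 known elements were sought up to 100 bp from each summit on either strand, and set beside all 2312 IDR summits within 500 bp of a protein-coding start. The full Ftz-F1 letters CAAGGTCA were at 0 of the 46 ribosomal protein summits, which allows a share of up to 6.52%, against 2.25% of the 2312. The shorter receptor letters AAGGTCA was also at 0, against 4.46%. Within 200 bp CAAGGTCA was found at 1 gene, RpLP2. The GAGA factor letters GAGAGA were at 0, against 13.4%. The DREF letters TATCGATA were at 10 (21.7%), against 6.36%, and the M1BP letters GGTCACACT at 5 (10.9%), against 5.8%. Either the DREF or the M1BP letters were at 15 summits (32.6%), against 11.5%, and no summit held both. GGTCACACT and AAGGTCA overlap in the letters GGTCA, so 1 run could count for both, and CAAGGTCA contains AAGGTCA.

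Among the summits with the DREF letters were those of RpL19, RpL27, RpL28, RpL36, RpL37-1, RpL41, RpS10b, RpS25 and RpS29, and the M1BP letters were at those of RpL7, RpL27A, RpL37A, RpLP0 and RpLP1. The runs below show where these letters stand, on the strand of the gene, with the element in capitals. RpL37-1 (chrX:15139400-15139500) and RpS10b (chrX:19597940-19598040) are given as 101 bases centred on the summit, and RpS29 (chr3R:9778046-9778075), RpL7 (chr2L:10200978-10201007), RpL27A (chr2L:4458329-4458358), RpL37A (chr2L:5070979-5071008) and RpLP0 (chr3L:22076054-22076083) as 30 bases around the element.
RpL37-1: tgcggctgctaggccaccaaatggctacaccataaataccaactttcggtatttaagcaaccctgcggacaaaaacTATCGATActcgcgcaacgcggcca
RpS10b: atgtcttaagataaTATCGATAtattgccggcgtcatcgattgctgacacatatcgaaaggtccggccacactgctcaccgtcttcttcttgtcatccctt
RpS29: atcgtggaaaaTATCGATActgccaccccc
RpL27A: gccgccgggcGGTCACACTgctacaaccgc
RpL37A: tatcgagcggcGGTCACACTtttcgctctt
RpLP0: gccatcgaagcGGTCACACTgggtgccgcc
RpL7: actccgcggccAGTGTGACCgtttggccga
RpL7 carries the M1BP letters on the other strand. The element began 6 bases after the summit base at RpS29 and 9 bases before it at RpL37A, and 43 bases before it at RpL7.

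Over promoters, taken as 250 bp before to 50 bp after a start, TATCGATA stood in 28 of the 92 members (30.4%), against 10.2% of protein-coding genes, and GGTCACACT in 10 (10.9%), against 6.78%. CAAGGTCA stood in 1, RpL22-like (1.09%, against 0.724%), and GAGAGA in 7 (7.61%, against 17.1%). TATCGATA was as frequent with an IDR summit, in 15 of 46 promoters, as without, in 13 of 46. GGTCACACT was in 7 of 46 with and 3 of 46 without. Counted from the start, the median place of the element was −59 bases for TATCGATA and −22.5 bases for GGTCACACT.

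The TCT initiator was sought as TCTTT with its C exactly at a start, which held for 2 members, against 0.222% of protein-coding genes. Since annotated starts often lay a few bases before the tract, the count was repeated, after the data were seen, with the C within 10 bases of a start. It then held for 57 of 92 members (62%), against 4.26% of protein-coding genes and 2.74% of mitochondrial ribosomal protein genes. The median place of the C was 4 bases downstream. With an IDR summit 28 of 46 members had it (60.9%), and without 29 of 46 (63%), so the initiator was about equally frequent in both.

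Other genes of protein synthesis were read by the same rule. Mitochondrial ribosomal protein genes, which serve a separate ribosome, had an IDR summit at 19 of 73 (26%), with a median signal value of 147 and a median offset of −99 bp, 94.7% of them upstream. Genes of translation initiation and elongation factors had one at 22 of 51 (43.1%), with a median of 145 and an offset of −9.5 bp. The cytoplasmic ribosomal protein genes were at 50%, 155 and −30 bp, and all protein-coding genes at 18.4%, 137 and −51 bp. The small subunit proteins outside the symbol rule, sta and Rack1, had none, at ranks 7002 and 5540.

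A list of 39 genes that act with the ribosome or on its genes, written with earlier results known, had an IDR summit at 19 (48.7%), against 18.4% of all protein-coding genes. It was at 7 of 8 growth regulators, 6 of 14 genes of ribosomal RNA modification and the nucleolus, 4 of 7 elongation factors and 2 of 4 promoter factors of ribosomal protein genes. None of 4 genes of RNA polymerase I had one. The highest signal values were those of larp, which binds messenger RNAs of ribosomal proteins (416, rank 146), S6k, the kinase of ribosomal protein S6 (248, rank 510), eEF1gamma (223, rank 661) and Fib, the nucleolar RNA methylase fibrillarin (219, rank 687).

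By arm, an IDR summit was at 10 of 19 members on 2L, 10 of 21 on 2R, 6 of 14 on 3L, 12 of 23 on 3R and 7 of 14 on X, and RpS3A was the only member on 4 and had one. The share on X was 50%, against 14.7% of protein-coding genes there, and on the 4 large autosome arms it ran from 42.9% to 52.6%, against 17.7% to 20.6%.

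The distance limit of the rule cut through few genes, whereas several members lay close to the signal value at which the IDR list ends. Taking the IDR summit nearest to a start of each gene, the farthest inside 500 bp was that of RpS26 at 228 bp, and the nearest outside was that of RpL26 at 624 bp. In all, 4 members had an IDR summit within 1000 bp but none within 500 bp. At the IDR limit, RpL37-1 was the last inside, at rank 3807 with a signal value of 94, and RpL18 the nearest outside, at rank 3985 with 91.5, so these 2 differ little in signal value although RpL37-1 is counted and RpL18 is not. Also close to the limit were RpL29 (94.7), RpL24-like (94.9) and RpL27A (94.9) inside, and RpL5 (88.6) outside.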

How the data were processed

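Chromatin immunoprecipitation of Ftz-F1 from 1 group of embryos was analysed from the authors' peak lists in build dm6. Per the deposited file listing, each replicate list and the pooled list hold peaks and background as input to the IDR analysis, with a control. For the aligner, the peak caller and the IDR cut-off, the name and version were not given in the sources used here. Signal values are those deposited by the authors on an unstated scale, as is the summit position inside each peak. Gene models were those of Ensembl release 115 (BDGP6.54) and sequence that of the release 6 genome. Summits within 500 bp of a transcript start were counted with Python 3.11.15 and numpy 2.4.6, and the strongest was kept per gene. The counting was tested on simulated data. Members, lists and alternatives were chosen with earlier results of these data known. The genes named are the 10 strongest members, all paralogs, all members with an IDR summit and a shared promoter, those nearest the limits, the stalk genes, and up to 4 genes of the list of other ribosome genes. Members named by function, those with no listed summit, and those with an element at the summit were chosen after their values were seen. Lists in dm3 were not used here. For 2 members no values of their own are reported here; they stay in all counts. No p-value was computed, because there is 1 group. Read counts behind peaks are unknown, and the limit for a count of 0 covers counting error only.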

Additional observations from a re-analysis of the deposited data

How the results depend on the processing

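Of 56 values recomputed under another setting, 42 stayed within 1.5 times the count, or within the spread between replicates for medians. In the stronger 1980 peaks of the IDR list the members with a summit were 29, the small subunit 10, the large subunit 19 and all protein-coding genes 10%, with a median signal value of 188.2 and a median offset of −41 bp; fewer peaks were counted by construction. Without members that share a promoter, 24 members remained, with a median signal value of 133.2 and a median offset of 4.5 bp. With another start within 250 bp counted as sharing, 13 shared promoters had a summit. Each replicate was left out in turn by taking the 3960 strongest peaks of the other alone. The IDR list was not rebuilt, so the member counts are the replicate counts given above. This gave 40 to 43 members, a median offset of −33 to −18.5 bp and 0 to 1 members with CAAGGTCA, the 1 being RpLP2 without replicate 1. CAAGGTCA was at 1 member within 200 bp of the summit, and at 3 with 1 base different, a setting added after seeing the data; the causes were not tested. No paired analysis was possible because there is 1 group. Read depth limits every value here and is unknown.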
